A study of Mus musculus with 6 samples.

Results

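The cardiac T-box transcription factors *Tbx1*, *Tbx2*, *Tbx3*, *Tbx4*, *Tbx5* and *Tbx20* were followed through bulk RNA-Seq of the mouse cardiac outflow tract (OFT). They are the 6 of 28777 listed genes whose Ensembl identifiers carry these symbols, taken as a family by name and not by a measured value. T-box proteins bind DNA through the conserved T-box domain and act as activators or repressors, often in competition for the same sites. In the embryonic heart, Tbx5 and Tbx20 work with Nkx2-5 and Gata4 on the genes of contractile chamber muscle, whereas Tbx2 and Tbx3 hold the OFT, the atrioventricular canal and the conduction system in a non-chamber state. Tbx1 acts in the pharyngeal mesoderm and endoderm that feed cells into the OFT, and loss of its human counterpart underlies much of the heart phenotype of 22q11 deletion syndrome. Tbx4 is best known in the hindlimb and the mesenchyme of the lung bud.

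The study asked which genes differ in the OFT of a mouse model of OFT malformation at E13.5. It compared 3 libraries of *Notch1*+/-*; Nos3*-/- embryos, which carry global knockout alleles, with 3 of wildtype littermates, all on a C57/BL6J background. The parents were *Notch1*+/-*; Nos3*+/- males and *Nos3*+/- females, and each library pooled the OFTs of 3 embryos, 18 in all, so that values describe pools and not single embryos. Deposited counts summed to 44387490, 43329291 and 34729103 in the libraries labelled wildtype replicates 1, 2 and 3, and to 38640033, 35551470 and 36917298 in those labelled mutant replicates 1, 2 and 3. For wildtype replicates 2 and 3, title and description give opposite library numbers, so their numbering follows the titles and is uncertain.

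The targeted genes, read first as a check of the labels, were counted in every library. *Notch1*, the receptor, had 74.3, 88.2 and 83.6 CPM (counts scaled to library size by edgeR's TMM method) in wildtype replicates 1, 2 and 3, and 155, 161 and 139 CPM in mutant replicates 1, 2 and 3. *Nos3*, the endothelial nitric oxide synthase, had 31.8, 47.2 and 48.1 CPM in the wildtype replicates and 22.1, 22.0 and 20.4 CPM in the mutant replicates. The groups did not overlap for either gene, but *Notch1* was higher under the label of a heterozygous knockout, with a log2 fold change of 0.89 (standard error 0.10) against −0.98 (standard error 0.15) for *Nos3*. Groups are therefore named by their labels throughout, and every fold change is that of the mutant label against the wildtype label.

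The libraries did not all lie nearest to their own label. Over the 16655 genes whose mean reached 1 CPM, wildtype replicate 1 differed from mutant replicates 1, 2 and 3 by a root mean square of 0.30, 0.33 and 0.29 in log2(CPM + 0.5). From wildtype replicates 2 and 3 it differed by 0.36 and 0.42. In *Notch1* it lay with the wildtype label, and in *Nos3*, at 31.8 CPM, between the groups and nearer to the mutant label. Calls of members and values of lists that rest on this library are given with and without it.

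The tissue label was checked against marker lists. Markers of heart muscle, smooth muscle, mesenchyme, endothelium and blood were abundant: the summed level of 10 myocardial markers ran from 20415 to 40339 CPM over the libraries, that of 8 mesenchymal markers from 4077 to 9477 CPM, that of 6 smooth muscle markers from 2779 to 5591 CPM and that of 8 endothelial markers from 1027 to 1373 CPM. The 5 blood markers summed to between 3050 and 6255 CPM, the highest sums being those of wildtype replicates 2 and 3. Foregut and lung endoderm (5 markers measured, at most 1.17 CPM in sum) and pharyngeal endoderm and pouch (2 measured, *Pax9* and *Pax1*, at most 0.133 CPM) were near 0. *Nkx2-1*, the lung and thyroid endoderm factor, stayed at or under 3 counts in every library. Skeletal and pharyngeal muscle (4 markers) reached 3.08 CPM at most. Most of the smooth muscle sum came from *Eln* (mean 2258 CPM) and *Acta2* (mean 1303 CPM). *Tagln* and *Myh11* of that list had means of only 2.56 and 2.97 CPM. Of the exon bases of *Tagln* 67.9% are shared with other annotated genes, and how reads on shared bases were counted was not stated. *Myh11*, with a similarly low mean, shares 0% of its exon bases. The part of sharing in the low value of *Tagln* was not tested.

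*Tbx20* was by far the most abundant of the family and the other members followed at a distance. Compared per length, as CPM per kb of exon over the 6 libraries, *Tbx20* had a level of 53.7 ± 12.9 (SD, n = 6), 10.3 times that of *Tbx2* at 5.22 ± 0.709 (SD, n = 6). *Tbx5* had 4.70 ± 2.27 and *Tbx3* 2.02 ± 0.741 CPM per kb, and *Tbx4* and *Tbx1* stood at 0.270 ± 0.163 and 0.163 ± 0.106 CPM per kb (SD, n = 6 for each). The ranges of *Tbx20* and *Tbx2* did not meet, nor did those of *Tbx3* and *Tbx4*. *Tbx2* and *Tbx5* could not be ordered beyond their spread, since *Tbx2* was the higher in 4 of 6 libraries, and the same held for *Tbx4* over *Tbx1*. *Tbx5* exceeded *Tbx3* in all 6 libraries, although their ranges met.

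**Figure D1:**
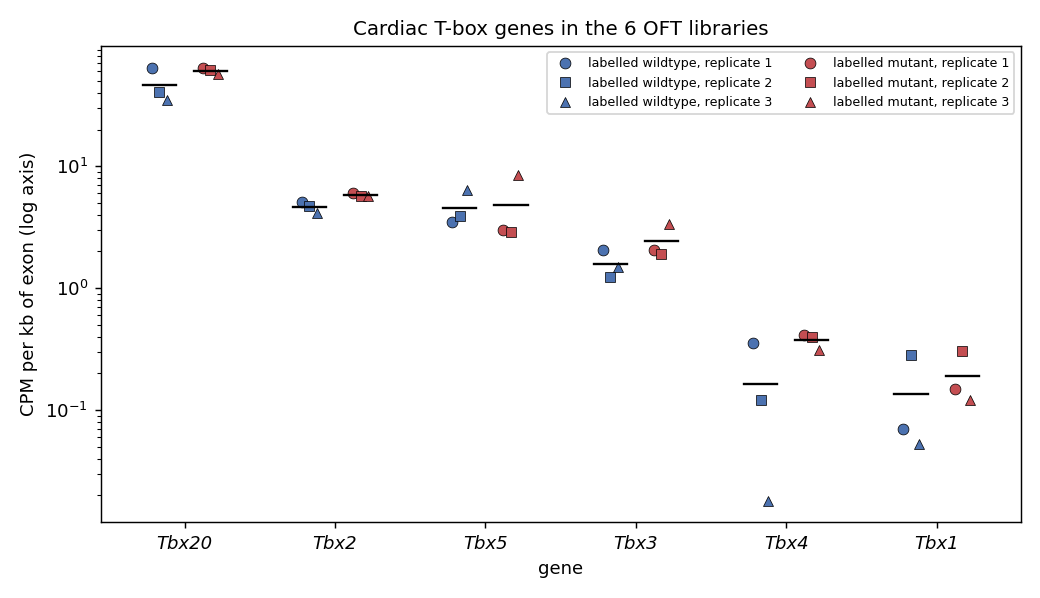
Level of each cardiac T-box gene in CPM per kb of exon on a log axis, with 1 point per library, coloured by label and shaped by replicate, and a bar at the mean of each label. *Tbx20* lies near 53.7 CPM per kb and *Tbx1* near 0.163, and only for *Tbx2* do all 3 libraries labelled mutant lie above all 3 labelled wildtype.

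None of the 6 members was called between the labels, although all 6 had a log2 fold change above 0. A call means that the p of edgeR's quasi-likelihood F-test, adjusted by Benjamini and Hochberg over all 28157 genes with more than 5 reads, did not exceed 0.05, and all 6 members passed that filter. The count called was 0 of 6 members, against 6 genes or 0.0213% of all genes tested, and DESeq2's Wald test called 0 members against 2.66% of all genes, with no adjusted p given for *Tbx1*. An unadjusted p under 0.05 was found by edgeR for 2 members, *Tbx2* and *Tbx3*, against 16.1% of all genes. Of the 16655 genes whose mean reached 1 CPM, 22.0% had such a p. DESeq2 called 734 of those 16655 and 749 of all genes. Shares of all genes, here and below, include genes of lower mean and so run under the shares of those 16655. The groups did not overlap for 1 member, *Tbx2*, against 19.6% of all genes tested and 23.5% of those 16655. Over the members the median log2 fold change was 0.44, against 0.011 over all genes tested and −0.030 over those 16655. With 6 genes named as a family, these counts describe the family and test nothing about it.

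*Tbx20*, a factor of myocardium and endocardial cushions that both activates and represses, carried most of the family's RNA. It had 773, 485 and 416 CPM in wildtype replicates 1, 2 and 3, and 761, 743 and 688 CPM in mutant replicates 1, 2 and 3. The libraries labelled mutant lay close together and above wildtype replicates 2 and 3, while wildtype replicate 1 was the highest of all 6, so that the groups overlapped. Means were 731 ± 38.0 CPM for the mutant label and 558 ± 189 CPM for the wildtype label (SD, n = 3 each), a log2 fold change of 0.39 with standard error 0.19 (edgeR adjusted p = 0.349). The two-sided exact permutation test of log2(CPM + 0.5) gave p = 0.4, where 3 libraries against 3 cannot give less than 0.1. Without wildtype replicate 1 the log2 fold change was 0.70 and *Tbx20* was called (edgeR adjusted p = 0.0133), in a fit that called 9.45% of all genes. Over all alternative settings its adjusted p from edgeR or DESeq2 ranged from 0.00662 to 0.690.

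Several marker lists set wildtype replicates 2 and 3 apart from the other 4 libraries, as *Tbx20* did. All 8 mesenchymal markers had positive log2 fold changes (median 0.59, with 0.90 without wildtype replicate 1 and 0.38 without wildtype replicate 3), and their summed level was 7974, 5379 and 4077 CPM in wildtype replicates 1, 2 and 3, and 8682, 9477 and 7397 CPM in mutant replicates 1, 2 and 3. The most abundant was the collagen gene *Col3a1*, with a mean of 2916 CPM, and no marker of the list was at 0. Like *Tbx20*, the list was low in wildtype replicates 2 and 3 and high in the other 4 libraries, as were the 5 neural crest and glial markers measured, led by *Erbb3* (mean 24.1 CPM), with sums of 36.0, 22.4 and 22.5 CPM under the wildtype label and 32.9, 40.1 and 30.9 CPM under the mutant label. The 5 blood markers, led by *Hba-a1* (mean 2055 CPM), ran opposite, with sums of 3050, 6255 and 5389 CPM under the wildtype label and 3403, 3270 and 3321 CPM under the mutant label. No marker of either list was at 0 in any library, and the part of these cell types in the *Tbx20* values was not tested. In bulk samples, fewer cells of a type and less RNA per cell cannot be told apart. The 10 myocardial markers ran the other way, with negative log2 fold changes for all 10 (median −0.49).

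*Tbx5*, the chamber activator behind Holt-Oram syndrome, differed more between replicates than between labels. It had 16.5, 18.1 and 29.7 CPM in wildtype replicates 1, 2 and 3, and 14.0, 13.6 and 39.9 CPM in mutant replicates 1, 2 and 3. By the numbers of the titles, uncertain for wildtype replicates 2 and 3, replicate 3 was the highest library under either label. The groups overlapped, with the lowest values in mutant replicates 1 and 2. Means of 22.5 ± 15.1 CPM for the mutant label and 21.4 ± 7.23 CPM for the wildtype label (SD, n = 3 each) gave a log2 fold change of 0.07 with standard error 0.38 (edgeR adjusted p = 0.947, exact permutation p = 1). Its direction reversed under 6 of the 15 alternatives, by the most without mutant replicate 3, where the value was −0.63 (edgeR adjusted p = 0.222, and from 0.222 to 0.981 under the alternatives, edgeR and DESeq2).

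Some genes of chamber muscle and of the atria were also high in replicate 3. The atrial peptide gene *Nppa*, a direct target of Tbx5, had 42.9, 34.8 and 212 CPM in wildtype replicates 1, 2 and 3, and 25.7, 7.84 and 130 CPM in mutant replicates 1, 2 and 3. *Bmp10*, a trabecular and atrial growth factor, had 10.9, 9.92 and 66.0 CPM in the wildtype replicates and 4.07, 1.55 and 36.1 CPM in the mutant replicates. For both genes replicate 3, as numbered in the titles, stood highest under either label. The 6 atrial markers, of which *Myl4* was the most abundant (mean 2024 CPM) and none was at 0, deviated from each gene's mean by medians of −0.11, −0.014 and 0.28 on the log2 scale in wildtype replicates 1, 2 and 3, and by −0.15, −0.34 and 0.32 in mutant replicates 1, 2 and 3. Their summed level was 1873, 2535 and 2972 CPM under the wildtype label and 1730, 1481 and 1962 CPM under the mutant label. *Sln* had 6.41, 9.68 and 5.39 CPM and *Nr2f1* 5.02, 2.77 and 2.90 CPM in the wildtype replicates, where neither was highest in replicate 3. In the mutant replicates both were, with 7.30, 6.08 and 13.8 CPM for *Sln* and 4.10, 4.78 and 4.88 CPM for *Nr2f1*. Their part in the *Tbx5* values was not tested.

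*Tbx2*, the repressor that keeps OFT and atrioventricular canal muscle from chamber differentiation, was the member whose groups did not overlap. It had 18.6, 17.2 and 14.9 CPM in wildtype replicates 1, 2 and 3, and 21.8, 20.5 and 20.6 CPM in mutant replicates 1, 2 and 3. All 3 libraries labelled mutant lay above all 3 labelled wildtype, by a margin smaller than the range within the wildtype label. The means were 21.0 ± 0.724 CPM (SD, n = 3) and 16.9 ± 1.86 CPM (SD, n = 3), a 1.24-fold difference (log2 fold change 0.31, standard error 0.11, edgeR adjusted p = 0.245, exact permutation p = 0.1, the smallest possible). *Tbx2* has a GC content of 63.2% in its longest transcript, the highest of the members, and after correction for GC content and length the log2 fold change was 0.15 (edgeR adjusted p = 0.591, and from 0.0529 to 0.648 under the alternatives, edgeR and DESeq2). When wildtype replicate 1 was left out it was 0.39 and still not called.

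*Tbx3*, the related repressor of the conduction system and OFT, had the larger fold difference of the pair and more spread. It had 13.497, 8.21 and 9.95 CPM in wildtype replicates 1, 2 and 3, and 13.7, 12.7 and 22.4 CPM in mutant replicates 1, 2 and 3. Mutant replicate 3 stood above every other library, and wildtype replicate 1 reached into the mutant range, so that the groups overlapped. Means of 16.3 ± 5.34 CPM for the mutant label and 10.6 ± 2.69 CPM for the wildtype label (SD, n = 3 each) gave a log2 fold change of 0.62 with standard error 0.23 (edgeR adjusted p = 0.252, exact permutation p = 0.2). With the replicate number of the titles as a block the value was 0.60 and *Tbx3* was called (edgeR adjusted p = 0.0384), in a fit that called 1577 genes or 5.6% of all. With the numbers of wildtype replicates 2 and 3 exchanged, where 0.295% of all genes were called, *Tbx3* was not called (0.60, edgeR adjusted p = 0.233, and from 0.0384 to 0.642 under the alternatives, edgeR and DESeq2). Without mutant replicate 3 the log2 fold change was 0.32.

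The genes that Tbx2 and Tbx3 are set against were examined as lists of chamber and non-chamber genes. None was called in either list (0 of 14 chamber genes and 0 of 14 non-chamber genes by edgeR), and 6 and 4 had an unadjusted p under 0.05 (16.1% of all genes), while DESeq2 called 1 and 2 (2.66% of all genes). Of the chamber genes 13 were lower and 1 higher under the mutant label, with a median log2 fold change of −0.58, and of the non-chamber genes 11 were higher and 3 lower, with a median of 0.32. With single libraries left out the chamber median ran from −1.01 without mutant replicate 3 to −0.25 without wildtype replicate 3. The non-chamber median ran from 0.24 to 0.64, the highest without wildtype replicate 1. Without that library edgeR called 2 chamber genes and 8 non-chamber genes, against 9.45% of all genes. With the replicate block, which called 5.6% of all genes, 11 chamber genes were called, all lower, and 4 non-chamber genes, all higher. With the uncertain numbers of wildtype replicates 2 and 3 exchanged, edgeR called 0 chamber genes (lowest adjusted p 0.0805) and 2 non-chamber genes, *Msx1* and *Cacna1g*, against 0.295% of all genes. In the chamber list *Cited1*, *Smpx* and *Nppa* had log2 fold changes of −1.01, −0.85 and −0.82, each with overlapping groups. In the non-chamber list the calcium channel gene *Cacna1g* had 46.0, 42.0 and 32.2 CPM in the wildtype replicates and 73.0, 79.4 and 59.3 CPM in the mutant replicates, with no overlap (log2 fold change 0.82, standard error 0.15, edgeR adjusted p = 0.128). *Msx1*, *Shox2* and *Twist1* had log2 fold changes of 0.84, 0.69 and 0.65, each with overlapping groups. The non-chamber list deviated by medians of 0.20, −0.40 and −0.64 in the wildtype replicates and 0.23, 0.20 and 0.12 in the mutant replicates, beside 0.30, −0.48 and −0.82 and 0.36, 0.50 and 0.11 for the mesenchymal markers, whose part in it was not tested. The chamber list deviated by medians of −0.040, 0.036 and 0.89 on the log2 scale in wildtype replicates 1, 2 and 3 and by −0.45, −0.73 and 0.25 in mutant replicates 1, 2 and 3, and 4 ventricular markers, led by *Myl2* (mean 4727 CPM), by 0.018, 0.17 and 0.54 and by −0.20, −0.41 and −0.091. The gene *Irx4* belongs to the chamber list and to the ventricular list. The summed level of these ventricular markers was 5193, 6987 and 9395 CPM under the wildtype label and 3769, 3083 and 5071 CPM under the mutant label. What the share of ventricular muscle in a dissection contributed was not tested.

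**Figure D2:**
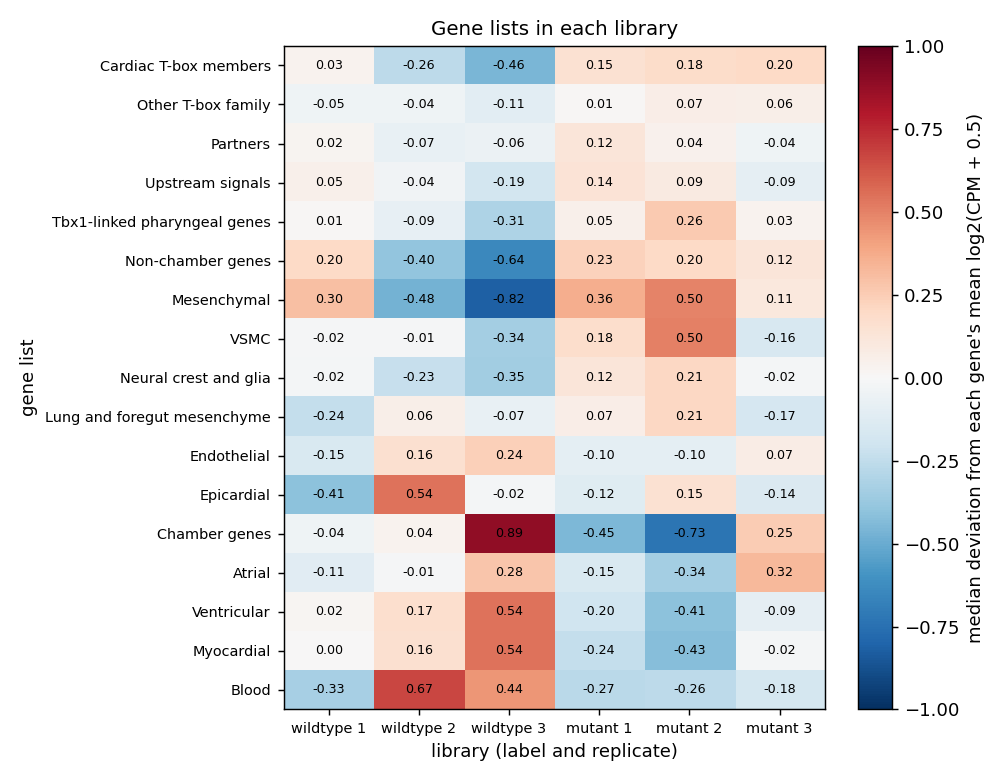
Median deviation of the genes of each list from their own mean log2(CPM + 0.5), by library, with red above and blue below the mean. The chamber list runs from −0.73 in mutant replicate 2 to 0.89 in wildtype replicate 3, and the mesenchymal list from −0.82 in wildtype replicate 3 to 0.50 in mutant replicate 2.

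*Tbx1*, the pharyngeal and second heart field member, was counted in every library at a low level. It had 11, 41 and 6 counts in wildtype replicates 1, 2 and 3, and 21, 40 and 16 counts in mutant replicates 1, 2 and 3. As CPM these were 0.247, 0.988 and 0.185 in the wildtype replicates and 0.525, 1.07 and 0.424 in the mutant replicates. By the numbers of the titles, uncertain for wildtype replicates 2 and 3, replicate 2 was the highest under either label. The groups overlapped. The means of 0.672 ± 0.346 CPM for the mutant label and 0.473 ± 0.447 CPM for the wildtype label (SD, n = 3 each) gave a log2 fold change of 0.49 with standard error 0.63 (edgeR adjusted p = 0.745, exact permutation p = 0.5). Leaving out wildtype replicate 2 or mutant replicate 2 moved this value the most: without the former it was 1.61, and without the latter −0.0086 (edgeR's adjusted p 0.375 and 0.998). The pharyngeal endoderm and pouch markers, at most 0.133 CPM in sum, were near 0 in the same libraries.

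Genes that act with or below Tbx1 in the pharyngeal region were read from a list of 16, of which 15 were tested. edgeR called 0, and at an unadjusted p under 0.05 it gave 4, all 4 higher under the mutant label (16.1% of all genes), and DESeq2 called 2 (2.66% of all genes). In all 11 were higher and 4 lower, with a median log2 fold change of 0.17 that was 0.33 without wildtype replicate 1 and 0.033 without wildtype replicate 3. Leaving out wildtype replicate 1 gave 3 calls, against 9.45% of all genes. The retinoic acid hydroxylase gene *Cyp26b1* had 21.6, 21.2 and 16.4 CPM in the wildtype replicates and 35.5, 34.7 and 29.1 CPM in the mutant replicates, without overlap (log2 fold change 0.74, standard error 0.13, edgeR adjusted p = 0.128). Its relative *Cyp26a1* had a log2 fold change of 1.02, the BMP antagonist *Chrd* 0.75 and the inhibitory Smad gene *Smad7* 0.65. The groups did not overlap for *Chrd* and *Smad7* and overlapped for *Cyp26a1*. Under the replicate block, with 5.6% of all genes called, *Cyp26a1*, *Cyp26b1* and *Smad7* were called, 3 of the 15, and with wildtype replicates 2 and 3 exchanged *Cyp26b1* alone.

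*Tbx4*, the lung bud and hindlimb member, was near the limit of detection in part of the libraries. It had 54, 17 and 2 counts in wildtype replicates 1, 2 and 3, and 56, 51 and 40 counts in mutant replicates 1, 2 and 3. In CPM these were 1.21, 0.410 and 0.0616 under the wildtype label and 1.40, 1.36 and 1.06 under the mutant label. Wildtype replicate 3 lay under the floor of 3 counts and wildtype replicate 1 among the libraries labelled mutant, so that the groups overlapped. Means were 1.27 ± 0.185 CPM for the mutant label and 0.562 ± 0.591 CPM for the wildtype label (SD, n = 3 each), a log2 fold change of 1.13 with standard error 0.64 (edgeR adjusted p = 0.401, exact permutation p = 0.2). Without wildtype replicate 1 it was 2.35 and *Tbx4* was called (edgeR adjusted p = 0.0381, and from 0.0381 to 0.716 under the alternatives, edgeR and DESeq2). Lung and foregut mesenchyme markers were measured for 5 genes, the most abundant *Osr1* (mean 12.1 CPM), and summed to 17.6, 21.9 and 16.4 CPM in wildtype replicates 1, 2 and 3 and to 26.8, 35.4 and 18.6 CPM in mutant replicates 1, 2 and 3. *Foxf1* and *Foxf2* of that list had means of 0.217 and 0.136 CPM. The part of these cell types in the *Tbx4* values was not tested.

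Leaving out wildtype replicate 1 gave 2 calls among the members, *Tbx20* and *Tbx4*, against 9.45% of all genes in that fit. Without it 4 of the 6 members had groups that did not overlap, against 42.7% of all genes tested, a comparison added after the data were seen. With the replicate block and the GC and length correction together, 1 member was called, *Tbx20* (log2 fold change 0.39, edgeR adjusted p = 0.00662), against 7.63% of all genes.

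**Figure D3:**
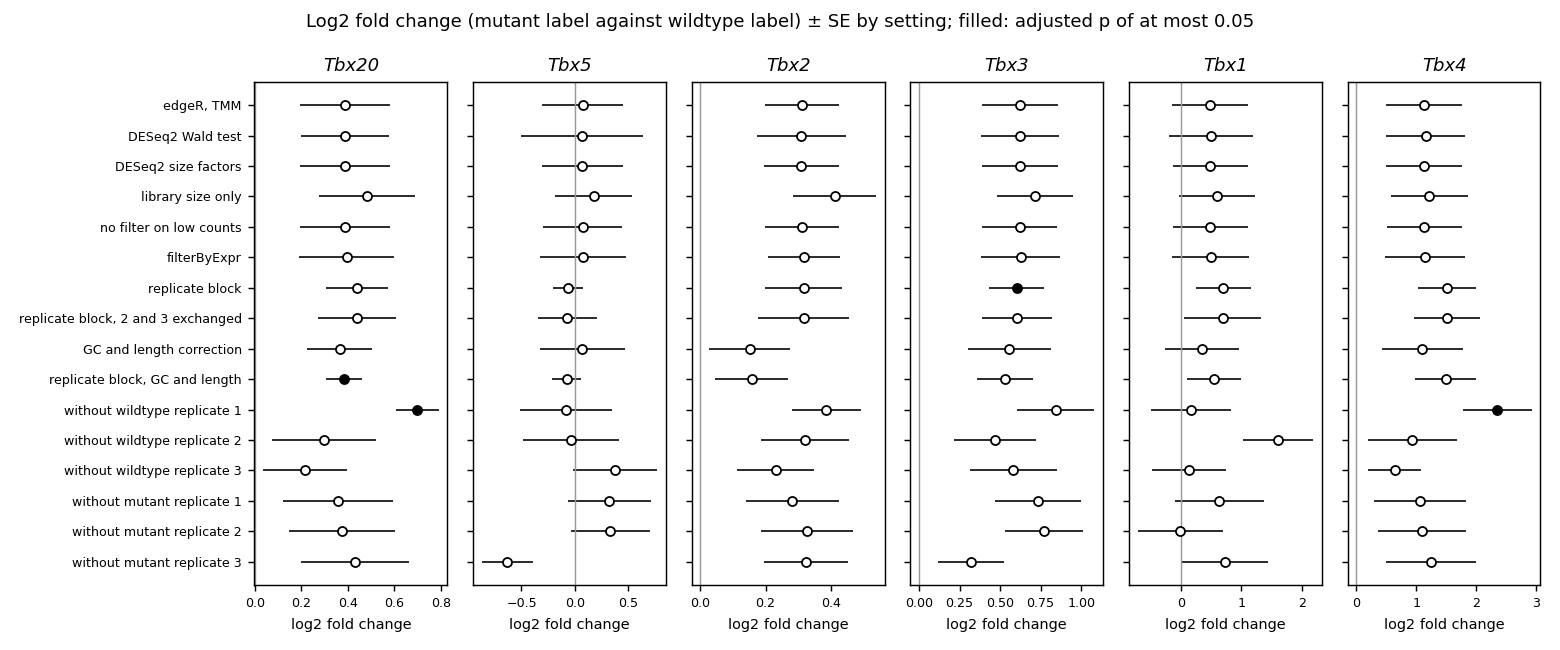
Log2 fold change of each member with its standard error under the main test (top line) and each alternative, with filled points for calls. *Tbx20* is filled at 0.70 and 0.39, *Tbx4* at 2.35 and *Tbx3* at 0.60, and *Tbx5* lies on both sides of 0.

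Of the rest of the T-box family, *Tbx18* and *Mga* had a mean of at least 1 CPM. Of 11 other family genes on the list 9 were in the counts table and 8 were tested, and *Tbx10* and *Tbx19* were not analysed here. *Tbx18*, a factor of epicardium and mesenchyme, had a level of 9.65 ± 1.24 CPM per kb (SD, n = 6), and *Mga*, which joins a T-box to a Max-binding domain, 7.65 ± 0.786 CPM per kb (SD, n = 6), both between *Tbx20* and *Tbx2* on this scale. *Tbx18* had 53.7, 43.1 and 37.8 CPM in the wildtype replicates and 46.1, 50.5 and 41.8 CPM in the mutant replicates, and its groups overlapped (log2 fold change 0.04, standard error 0.13, edgeR adjusted p = 0.918). *Mga* had 131, 101 and 109 CPM against 112, 123 and 129 CPM, also overlapping (log2 fold change 0.10, edgeR adjusted p = 0.715). The other 7 measured genes had means under 1 CPM, with *Tbx6* the highest of them at 0.390 CPM per kb, above *Tbx4* and *Tbx1* on that scale. *T*, *Tbx6* and *Tbx15* had log2 fold changes of 0.95, 0.78 and −0.03 with overlapping groups, and *Tbr1* had 5, 0 and 4 counts under the wildtype label and 13, 6 and 7 counts under the mutant label. *Tbx21*, *Tbx22* and *Eomes* had at most 4 counts in any library, and no fold is given for them. edgeR called 0 of the 8 (0.0213% of all genes), with 0 at an unadjusted p under 0.05 (16.1% of all genes). DESeq2 called 0 of the 8 (2.66% of all genes). It gave no adjusted p for 5 of the 8, and none for 10376 of all 28157 genes. Their median log2 fold change was 0.51, and 0.07 with the 2 genes at or under the floor in a whole group set against the floor. With single libraries left out the former ran from 0.10 to 0.74, over the genes that still passed the filter on reads.

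Partner proteins of the cardiac T-box factors were measured for all 16 listed genes, and 0 were called by edgeR, 3 had an unadjusted p under 0.05 (16.1% of all genes) and DESeq2 called 1 (2.66% of all genes). Of all 16 partners 11 were higher and 5 lower, and their median was 0.04 in log2 fold change, and from −0.011 to 0.13 with single libraries left out. *Nkx2-5*, the homeobox partner of Tbx5 and Tbx20, had 60.9, 77.8 and 90.0 CPM in the wildtype replicates and 61.2, 47.8 and 58.5 CPM in the mutant replicates, with groups that overlapped through wildtype replicate 1 (log2 fold change −0.45, standard error 0.15, edgeR adjusted p = 0.223). Without that library its value was −0.59, and it was called (edgeR adjusted p = 0.0242), as were 4 of the 16 partners in all and 9.45% of all genes. *Isl1*, a second heart field factor, had a log2 fold change of 0.56, *Hand1* 0.40 and the corepressor *Tle3* 0.43, of which *Tle3* alone had groups that did not overlap. *Tle3* was the gene called by DESeq2 (log2 fold change in edgeR 0.43, edgeR adjusted p = 0.181). *Nkx2-5*, *Isl1* and *Tle3* were called with the replicate block, against 5.6% of all genes, and all 3 calls were lost with wildtype replicates 2 and 3 exchanged (lowest edgeR adjusted p of the list 0.171).

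Upstream signals of the family, mainly BMP ligands and their Smads with Forkhead, Hey and retinoid genes, were tested for 15 of 17 listed genes. By edgeR 0 were called, 6 had an unadjusted p under 0.05 (16.1% of all genes), 3 in each direction, and DESeq2 called 3 (2.66% of all genes). The median log2 fold change was 0.19, with 10 higher and 5 lower, and from 0.11 to 0.23 with single libraries left out. Without wildtype replicate 1, where 9.45% of all genes were called, 5 of the 15 were. *Bmp2*, which induces *Tbx2* in the atrioventricular canal, had 28.2, 14.0 and 13.7 CPM in the wildtype replicates and 28.0, 29.3 and 29.6 CPM in the mutant replicates. As in *Tbx20*, wildtype replicate 1 lay with the mutant label and the groups overlapped (log2 fold change 0.63, standard error 0.23, edgeR adjusted p = 0.25). *Bmp2* without that library was at 1.06 and called (edgeR adjusted p = 0.00394). For *Bmp6* and *Bmp5* the groups did not overlap, at log2 fold changes of 0.89 and −0.73 (edgeR's adjusted p 0.194 and 0.181). *Bmp10*, given above, had −1.05. The replicate block called 7 of the 15, these 4 among them, against 5.6% of all genes, and with wildtype replicates 2 and 3 exchanged edgeR called 0 of the 15 (lowest adjusted p 0.0614).

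The remaining marker lists are given by their counts. By edgeR 0 genes were called in each. Of the 10 myocardial markers 8 had an unadjusted p under 0.05, all lower (16.1% of all genes), and 5 were called by DESeq2 (2.66% of all genes). An unadjusted p under 0.05 was also found for 5 of 8 mesenchymal, 4 of 5 blood, 3 of 4 ventricular, 3 of 6 smooth muscle, 2 of 8 endothelial, 2 of 6 atrial, 1 of 5 neural crest and glial, 2 of 5 lung and foregut mesenchyme, 1 of 4 skeletal and pharyngeal muscle and 0 of 6 epicardial markers by edgeR. DESeq2 called 1 each of the first 6 of these lists and 0 of the others. Without wildtype replicate 1 edgeR called 7 of 8 mesenchymal, 5 of 10 myocardial, 4 of 5 blood, 3 of 4 ventricular, 2 of 6 smooth muscle, 2 of 8 endothelial, 2 of 6 atrial and 1 each of the epicardial, neural crest and skeletal muscle markers, against 9.45% of all genes. *Myl3*, *Tnni3*, *Tnni1* and *Actc1* had log2 fold changes of −0.63, −0.61, −0.54 and −0.52. The replicate block, with 5.6% of all genes called, called 6 of 10 myocardial markers (all lower), 6 of 8 mesenchymal (all higher), 3 of 6 smooth muscle, 3 of 8 endothelial, 2 of 6 atrial, 2 of 4 ventricular and 2 of 5 blood markers and 1 of 5 of lung and foregut mesenchyme. With wildtype replicates 2 and 3 exchanged, *Sox9* of the mesenchyme alone stayed called (edgeR adjusted p = 0.0264). Medians were 0.03 for atrial, −0.49 for ventricular, −0.11 for endothelial, 0.46 for smooth muscle, −0.20 for epicardial, 0.37 for neural crest and glial, 0.26 for lung and foregut mesenchyme and −0.56 for blood markers. With single libraries left out the atrial median ran from −0.27 to 0.15, the epicardial from −0.41 to 0.15, that of smooth muscle from 0.25 to 0.63, that of neural crest and glia from 0.23 to 0.65, that of lung and foregut mesenchyme from 0.0031 to 0.50 and that of the endothelium from −0.20 to −0.030. The myocardial median ran from −0.60 to −0.31, the ventricular from −0.60 to −0.31 and that of blood from −0.81 to −0.35. Among these genes, *Myh11*, *Eln* and *Rgs5* of smooth muscle had log2 fold changes of 1.04, 0.87 and 0.83, but *Cnn1* and *Acta2* −0.29 and −0.25. *Sox9* and *Prrx1* of the mesenchyme had 0.92 and 0.79, and *Erbb3* of neural crest had 0.37. *Npr3* and *Emcn* of the endothelium had −0.61 and −0.55, and *Nfatc1*, the only higher gene of those 8, had 0.40. Lists near 0 counts had medians of −0.049 (foregut and lung endoderm), −0.82 (skeletal and pharyngeal muscle) and 1.23 (pharyngeal endoderm, or 0.44 with the gene at the floor set against it). With single libraries left out they ran from −0.38 to 0.65, from −1.32 to −0.49 and from 0.17 to 1.04, each over the genes that still passed the filter on reads.

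Of the 6 members, 4 lie in pairs in the genome. On mm10, *Tbx2* (chr11:85832551-85841948, plus strand) is followed after 44.5 kb by *Tbx4* (chr11:85886422-85916097, plus strand), and *Tbx3* (chr5:119670669-119684724, plus strand) after 148 kb by *Tbx5* (chr5:119832668-119885219, plus strand). *Tbx1* lies on chr16:18580979-18590671 and *Tbx20* on chr9:24718138-24774303, both on the minus strand. *Tbx3* and *Tbx5* share chromosome 5 with the targeted *Nos3* but lie 95.3 and 95.4 Mb from it. Over the 6 libraries log2(CPM + 0.5) had a Pearson r of 0.941 between the neighbours *Tbx2* and *Tbx4*, and of 0.408 between *Tbx3* and *Tbx5*. The highest r of any pair of members was 0.986, between *Tbx4* and *Tbx20* on different chromosomes, and the lowest −0.490, between *Tbx1* and *Tbx5*. *Tbx4* had a mean of 0.918 CPM, near the 0.5 CPM added before the log, so its values of r rest on few counts. All members share their libraries and labels, and each r is a description over 6 points.

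Exons of the members are nearly free of other genes. Only *Tbx3* shares exon bases with another annotated gene, 1.74% of them with the antisense transcript *Tbx3os1* (mean 0.780 CPM, log2 fold change 0.63, edgeR adjusted p = 0.411). Transcripts on the opposite strand start 0.328 kb from *Tbx2* (2610027K06Rik, mean 0.786 CPM), 0.748 kb from *Tbx5* (Gm43050, mean 2.23 CPM) and 2.16 kb from *Tbx20* (Gm29824, mean 1.19 CPM), with log2 fold changes of 0.43, −0.54 and 0.21 and no call by edgeR. Of the nearest protein-coding genes, *Med13l*, 905 kb before *Tbx3*, had 55.5, 42.8 and 39.9 CPM in the wildtype replicates and 68.4, 70.5 and 55.8 CPM in the mutant replicates, without overlap (log2 fold change 0.49, standard error 0.14, edgeR adjusted p = 0.194). *Bcas3* beside *Tbx2*, *Brip1* beside *Tbx4*, *Rbm19* beside *Tbx5*, *Gnb1l* and *Gp1bb* beside *Tbx1* and *Dpy19l2* beside *Tbx20* had log2 fold changes of 0.15, 0.13, −0.09, −0.19, −0.08 and −0.07, none called. *Gm11444* between *Tbx2* and *Tbx4* had 0 counts in every library labelled wildtype and in mutant replicate 3. Its mean over all libraries was 0.0425 CPM, and the groups overlapped. 4930588K23Rik near *Tbx1* and *Gm10181* near *Tbx20* were not analysed here.

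Genes with the most similar profile were sought among 16654 others with a mean of at least 1 CPM, by Pearson's r of log2(CPM + 0.5) over the 6 libraries. For *Tbx20* they were *Pycr1* and *Ociad2* (each 0.998), and for *Tbx2* they were *Tmcc3* (0.997) and *Cdc42ep3* (0.995). *Pycr1*, a proline synthesis gene, had 20.0, 14.4 and 13.1 CPM in the wildtype replicates and 19.3, 19.5 and 18.2 CPM in the mutant replicates. For *Tbx3* the closest were *Cdk17* (0.993) and 4933434E20Rik (0.988), and for *Tbx5* *Hsbp1l1* (0.992) and the atrial marker *Stard10* (0.987). *Stard10* had 8.86, 9.23 and 12.5 CPM in the wildtype replicates and 7.67 and 7.34 CPM in mutant replicates 1 and 2, with mutant replicate 3 above all of these. None of these 8 genes was called by edgeR. As the highest of 16654 values over only 6 libraries, each r is high through the search itself and describes shape alone. *Cdk17*, for example, ran from 36.6 to 43.4 CPM, where *Tbx3* ran from 8.21 to 22.4 CPM.

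RefSeq promoters of the build GRCm38.p6, each 250 bases before to 50 after a start, were available for *Tbx1* (2 starts), *Tbx4* and *Tbx20*. They are shown for *Tbx20* and *Tbx4*, the pair of members with the highest r above, and for the start of *Tbx1* with a T-box motif. Both strands were searched for AGGTGT as the core of the T-box site, GTGGGAA for Rbpj, the DNA-binding partner of the Notch receptors, AGATAA for GATA factors, AAGTG for Nkx factors and CANNTG as the E-box, which 13.7%, 6.38%, 11.2%, 46.4% and 72.3% of all 32851 promoters of that length hold. Capitals mark any of these matches, which are letters and not shown binding sites. The *Tbx20* promoter (chr9:24774254-24774553, minus strand, 68.3% GC) held none, the *Tbx4* promoter (chr11:85896515-85896814, plus strand, at a start inside the annotated gene) held 6 E-box matches, and the *Tbx1* promoter (chr16:18590622-18590921, minus strand) held 1 T-box and 2 E-box matches.
Tbx20: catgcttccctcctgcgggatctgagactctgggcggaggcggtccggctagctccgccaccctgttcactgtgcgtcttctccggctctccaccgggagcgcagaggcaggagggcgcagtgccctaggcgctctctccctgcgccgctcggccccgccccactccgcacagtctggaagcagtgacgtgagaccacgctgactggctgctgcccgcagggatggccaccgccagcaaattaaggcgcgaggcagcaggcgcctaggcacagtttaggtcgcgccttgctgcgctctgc
Tbx4: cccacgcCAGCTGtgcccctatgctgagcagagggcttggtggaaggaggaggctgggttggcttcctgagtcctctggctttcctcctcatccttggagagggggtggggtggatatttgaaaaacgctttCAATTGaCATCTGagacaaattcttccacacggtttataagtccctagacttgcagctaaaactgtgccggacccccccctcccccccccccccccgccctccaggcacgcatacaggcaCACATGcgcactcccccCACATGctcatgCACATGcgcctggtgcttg
Tbx1: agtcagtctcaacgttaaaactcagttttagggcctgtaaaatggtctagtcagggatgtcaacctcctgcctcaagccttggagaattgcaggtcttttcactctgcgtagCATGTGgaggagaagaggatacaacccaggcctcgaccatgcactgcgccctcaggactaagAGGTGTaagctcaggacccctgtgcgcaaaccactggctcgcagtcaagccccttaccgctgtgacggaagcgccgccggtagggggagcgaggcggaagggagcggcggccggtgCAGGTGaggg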

How the data were processed

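Reads of ribosome-depleted, stranded total RNA libraries were aligned to mm10 with TopHat2 2.1.0 by the sequencing provider, and the values deposited by the authors are raw counts of reads per gene on exons, made with GenomicAlignments. The release of the annotation, the use of the strand and the treatment of overlapping genes were not given in the sources used here. Genes with 5 or fewer reads over the 6 libraries were left out, and counts of the remaining 28157 were tested with TMM factors in R 4.3.3 with edgeR 4.0.16 (quasi-likelihood test, Benjamini-Hochberg adjustment over all genes). DESeq2 1.42.0 was an alternative, as were its size factors, library size only, no filter, filterByExpr, an adjusted p of at most 0.01, a replicate block, the block with wildtype numbers 2 and 3 exchanged, a correction for GC content and length, block and correction together, each library left out, and longest transcripts as gene lengths. The code was tested on simulated data. Single genes had a two-sided exact permutation test of log2(CPM + 0.5). Lengths and positions are from the GENCODE M21 annotation.

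The replicate numbers of the titles were checked as pairs. Deviations from the group means over 16655 genes correlated by 0.10, 0.15 and 0.46 for numbers 1, 2 and 3, each above 0.1. The labels name no shared litter or day, wildtype replicate 1 correlated more with mutant replicate 2 (0.32), and with wildtype 2 and 3 exchanged the pairs gave −0.12 and −0.49.

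Genes named are the 6 members, *Notch1* and *Nos3*, up to 4 genes of at least 1 CPM per list with the largest log2 fold change and any called, the other T-box genes, the 2 most similar genes of each member of at least 1 CPM, and neighbours starting within 5 kb or next to a member. *Acta2*, *Tagln*, *Pax9*, *Pax1*, *Nkx2-1*, *Foxf1*, *Foxf2* and the most abundant marker of a list were named after their values were seen. Members and lists were chosen with earlier results of these data known.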

Additional observations from a re-analysis of the deposited data

How the results depend on the processing

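edgeR called 6 genes. The count was 749 by DESeq2's Wald test, 1577 with the replicate block, 83 with the block and wildtype 2 and 3 exchanged, 2148 with block plus GC and length correction, 2 at an adjusted p of at most 0.01, and from 1 to 2593 with a library left out, the highest without wildtype replicate 1. With the replicate block *Tbx3* was called (0.60), *Tbx5* was −0.066, and *Tbx20* was 0.44 and not called. The block changed no other call of a member. With wildtype 2 and 3 exchanged *Tbx5* was −0.073, and with block and correction it was −0.076 and *Tbx20* was called (0.39). With a library left out the log2 fold change of *Tbx20* ran from 0.22 to 0.70, of *Tbx5* from −0.63 to 0.38, of *Tbx2* from 0.23 to 0.39, of *Tbx3* from 0.32 to 0.84, of *Tbx4* from 0.64 to 2.35 and of *Tbx1* from −0.0086 to 1.61. Of the 16655 genes whose mean reached 1 CPM, 1499 were called with the replicate block and 2493 without wildtype replicate 1. Scaling by library size only moved the median of all genes by 0.10. Without wildtype replicate 1 the groups did not overlap for 4 members in place of 1 (added after seeing the data). With longest transcripts as lengths 4 of the 6 places in the order of levels were kept, *Tbx5* stood above *Tbx2*, and *Tbx20* had 70.9 CPM per kb in place of 53.7. The cause of these changes was not tested. *Tbx2* kept its direction and was not called under any of the 15 alternatives. Of the recomputed list medians, 251 moved by less than the SD within groups and 47 by more.

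*Tbx1* and *Tbx4* had at most 56 counts in a library, and the floor of 3 counts covers counting error only. With 3 pools of OFTs per label the exact test has a smallest p of 0.1.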
